A study of Homo sapiens with 16 samples.

Results

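The sites described here are stretches of the human genome at which HIF-1α was called in at least 3 of 4 cancer cell lines and HIF-2α in none of them. They were chosen by the peak lists themselves. The peaks of all 16 lists that overlapped by 1 bp or more were merged into 11685 sites, and those with a HIF-1α peak in either replicate of 3 or 4 lines and no peak in any of the 8 HIF-2α lists were kept. This left 363 sites, 3.11% of all sites. HIF-1α peaks in 3 or 4 lines occurred at 740 sites, of which the 363 without HIF-2α were 49.1% and the other 377 carried a HIF-2α peak in at least 1 list. Those 377 serve as the nearest comparison and are called shared pan-line sites below. The selection rests on the presence of peaks, so the contrast between HIF-1α and HIF-2α at the 363 sites is a description and carries no test.

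Chromatin immunoprecipitation followed by sequencing (ChIP-seq) was performed in A549 lung, HCT116 colorectal, PC3 prostate and T47D breast carcinoma cells with a rabbit polyclonal antibody against HIF-1α (PM14) or HIF-2α (PM9). Every library came from cells held at 0.5% O2 for 16 hours, and no list from cells at normal oxygen was used here. Each of the 8 combinations of line and antibody had 2 replicate libraries, which the labels do not tie to separate cultures. The established lines were taken as labelled, since peak lists hold no expression against which to check them.

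Hypoxia-inducible factors are pairs of an oxygen-regulated α subunit, HIF-1α or HIF-2α, and the constant partner HIF-1β. In oxygenated cells prolyl hydroxylases mark the α subunits for destruction through VHL. In hypoxia the α subunits accumulate, enter the nucleus and bind hypoxia response elements, whose core is ACGTG or GCGTG, together written RCGTG. Both factors read this same core, and HIF-1 is best known for the genes of glycolysis.

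The sequences at the sites with the strongest HIF-1α peaks are shown first, because they illustrate that the core motif was present at some and absent from the centre of others. For each site the centre was taken as the middle of its best-ranked HIF-1α peak. Each line below gives 25 bases of GRCh37, 5′ to 3′ on the strand that reads RCGTG, with the core nearest to the centre in capitals. The 5 sites are among the 6 of the 12 best-ranked that held the core in the central 200 bp, and are named by the gene with the nearest protein-coding start site.
FAM174B (chr15:93352345-93352369, plus strand): cccgcactagGCGTGgtgcccggag
VGLL4 (chr3:11684390-11684414, minus strand): tccctctcccGCGTGgggccggaag
R3HCC1L (chr10:99894287-99894311, plus strand): cttctcccctACGTGacctgaactc
CISD2 (chr4:103790245-103790269, plus strand): gtgctggagaGCGTGgcccgtatcg
BBX (chr3:107243760-107243784, minus strand): agagaactggACGTGtcattagcag

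The other 6 of the 12 best-ranked sites, at RLF, ZNF654, RAPGEF6, PPFIA3, UQCC4 and KDM2A, had no RCGTG in the central 200 bp. The central window at RAPGEF6, which encodes an exchange factor for Rap GTPases and lies outside all annotated coding-gene exons, is given on the plus strand as an example without the core.
RAPGEF6 (chr5:130971006-130971205): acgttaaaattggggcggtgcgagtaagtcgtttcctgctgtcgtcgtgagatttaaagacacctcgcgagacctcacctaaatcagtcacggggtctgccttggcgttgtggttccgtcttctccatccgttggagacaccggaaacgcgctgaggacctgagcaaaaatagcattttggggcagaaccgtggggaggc

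The sites near genes with a known link to hypoxia or to histone demethylation carried the following cores, written in the same way. They were chosen because their genes stand on the gene lists used here.
SAP30 (chr4:174291093-174291117, minus strand): cctgaaaagcGCGTGcgcgcctgtg
HERC3 (chr4:89514390-89514414, plus strand): gtgtgcggacACGTGtgtacgggtg
KDM5B (chr1:202780384-202780408, minus strand): cagccggttgACGTGaggtctggga
KDM4C (chr9:6716214-6716238, minus strand): ggaggaacggACGTGaagggagctg
KDM7A (chr7:139930477-139930501, plus strand): ggatgcgcagACGTGcagcacgtgc
VEGFA (chr6:43739247-43739271, minus strand): ggcagggcccGCGTGggcggtgagc

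Cores were clustered at KDM7A and VEGFA, with 5 and 4 copies in the central 200 bp. The palindrome CACGTG, present in the KDM7A window, reads as the core on both strands and was counted once on each. Their windows are printed on the plus strand with every copy in capitals, CACGT and CACGC being the core read from the other strand.
KDM7A (chr7:139930389-139930588): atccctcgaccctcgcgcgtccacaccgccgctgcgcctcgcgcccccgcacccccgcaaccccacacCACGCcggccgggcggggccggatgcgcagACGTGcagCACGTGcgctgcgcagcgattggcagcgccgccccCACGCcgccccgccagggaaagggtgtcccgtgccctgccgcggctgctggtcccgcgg
VEGFA (chr6:43739131-43739330): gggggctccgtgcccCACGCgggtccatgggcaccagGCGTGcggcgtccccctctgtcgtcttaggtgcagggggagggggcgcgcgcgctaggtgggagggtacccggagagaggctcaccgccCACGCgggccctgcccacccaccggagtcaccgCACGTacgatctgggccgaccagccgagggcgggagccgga

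Because peaks chose the sites, the lists bound what can be seen at them. The lists held between 275 and 4505 peaks and no read totals, so depth is unknown and a missing peak is not evidence of absent binding. HCT116 and PC3 supplied most of the calls: 356 of the 363 sites had a HIF-1α peak in HCT116, 357 in PC3, 296 in T47D and 168 in A549. Only 88 sites had HIF-1α in all 4 lines. Of the 275 sites in 3 lines, A549 was the missing line at 195, T47D at 67, HCT116 at 7 and PC3 at 6. Leaving out a single library, PC3 HIF-1α replicate 2, reduced the 363 sites to 227. Requiring both HIF-1α replicates of a line to hold the peak reduced them to 91.

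The replicates of a line differed in how many of the sites they held. A549 replicates 2 and 3 held 77 and 149 of the sites, HCT116 replicates 2 and 3 held 337 and 304, PC3 replicates 1 and 2 held 193 and 344, and T47D replicates 1 and 2 held 234 and 200. The commonest numbers of HIF-1α libraries per site were 4, at 106 sites, and 5, at 111 sites. Sites in all 8 HIF-1α libraries numbered 29 of 363 (7.99%), against 114 of 377 shared pan-line sites (30.2%).

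HIF-1α peaks at the 363 sites ranked lower than those at the shared pan-line sites in every library. The authors' score of a peak has no stated scale, so each peak was given its percentile within its own list, 100 being the highest score. In A549 the median percentile of the sites was 49.9 and 46.5 in replicates 2 and 3, against 70.0 and 67.5 at shared sites. In HCT116 it was 80.1 and 77.7 against 94.4 in both replicates. In PC3 it was 65.0 and 70.5 against 84.8 and 91.0, and in T47D 46.0 and 49.8 against 75.03 and 74.82. These values are a description, since being listed chose the sites. The medians were lower in A549 and T47D, whose HIF-1α lists held 382 to 761 peaks, than in PC3 and HCT116, whose lists held 1517 to 4505, so the percentiles of a site in different lines are read against these medians.

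The strongest of the sites was at FAM174B on chromosome 15, whose peak was the best-scoring of the 363 in all 8 HIF-1α libraries. Its replicates scored 2418 and 1681 in HCT116, 917.4 and 1982 in PC3, 1719 and 1952 in T47D, and 1126 and 1876 in A549. The percentiles lay between 99.1 and 99.7, so that lines and replicates did not separate. The site centre was 710 bp downstream of a FAM174B start site and outside the gene's representative transcript, and the nearest HIF-2α peak was 162513 bp away.

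VGLL4, a cofactor that opposes YAP at TEAD factors, and RLF, a zinc finger protein, came next in mean percentile over the 8 libraries. The VGLL4 peaks stood at percentiles 98.6 and 97.3 in HCT116, 94.4 and 98.4 in PC3, 96.2 and 96.7 in A549, and 91.9 and 91.4 in T47D. Those of RLF stood at 98.8 and 98.6 in HCT116, 98.3 and 99.2 in PC3, 95.1 and 92.9 in T47D, and 88.1 and 93.7 in A549. Both sites were thus high in every line, with T47D lowest at VGLL4 and A549 replicate 2 lowest at RLF. The VGLL4 site was 1063 bp downstream of a start site within an intron, and the RLF site 214 bp downstream of a start site in a coding exon.

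UQCC4, an assembly factor of respiratory complex III, ranked highest in T47D and A549, where the 363 sites in general had the lower median percentiles. At UQCC4 the percentiles were 94.8 and 94.2 in T47D and 91.5 and 90.1 in A549, but 87.6 and 72.2 in HCT116 and 77.5 and 80.7 in PC3. At RAPGEF6 they were 96.5 and 94.0 in T47D, 87.0 and 86.9 in A549, 96.6 and 91.2 in HCT116 and 62.3 and 95.4 in PC3. The gap between the PC3 replicates at RAPGEF6 was wider than the gaps between lines. IBA57, needed for mitochondrial iron-sulphur proteins, had 97.5 and 96.5 in HCT116, 85.5 and 96.5 in PC3, 76.7 and 80.7 in T47D, and 47.3 and 71.5 in A549.

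The remaining best-ranked sites were at ZNF654, R3HCC1L, PPFIA3 (a synaptic scaffold protein), CISD2 (an iron-sulphur protein of the mitochondrial outer membrane and endoplasmic reticulum), BBX (an HMG-box protein) and KDM2A. Their mean percentiles over 8 libraries ran from 90.7 at ZNF654 to 82.2 at KDM2A. All 12 best-ranked sites had a peak in every HIF-1α library.

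**Figure D1:**
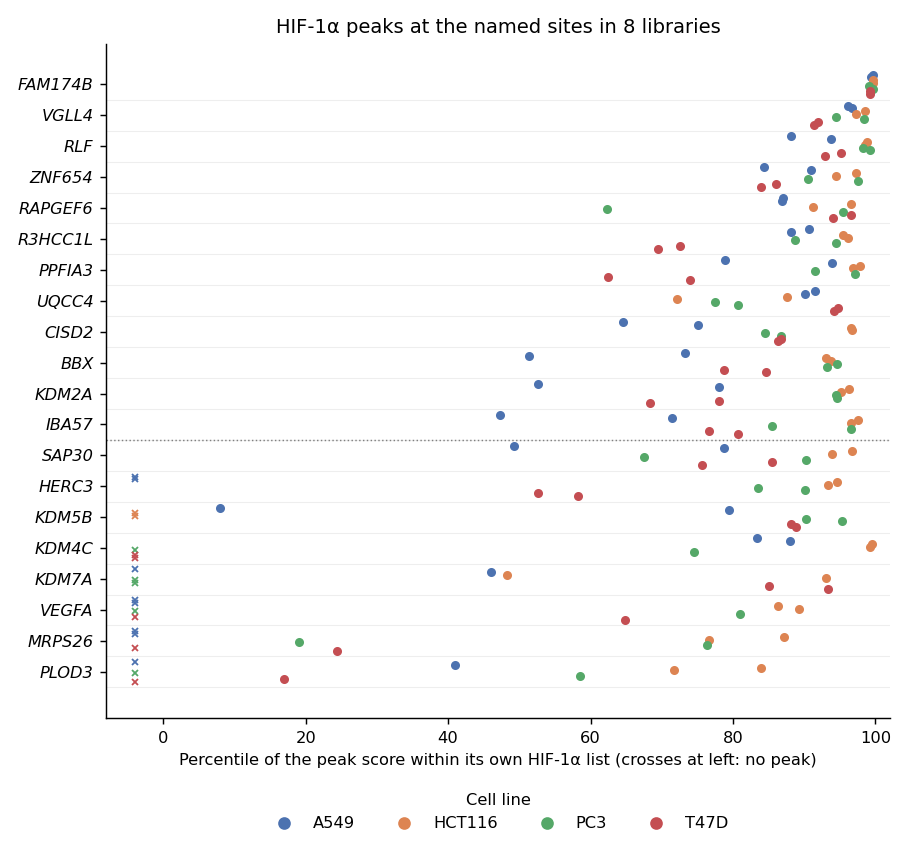
Percentile of the HIF-1α peak score within its own list (horizontal axis) at the 12 best-ranked sites, above the dotted line, and at the 8 further sites near listed genes. Points are single libraries coloured by cell line and crosses mark libraries without a peak; FAM174B sits above 99 in all 8, whereas KDM4C is above 99 in HCT116 and missing from T47D.

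At the lower edge of the selection the peaks were weak. The 3 sites of lowest mean percentile were at BCL11B, RHCE and DMAC1, with means of 5.58, 6.71 and 8.16 over 8 libraries, and each had a peak in 3 libraries of 3 lines. BCL11B had scores of 55.62 in A549 replicate 2, 54.54 in HCT116 replicate 3 and 52.22 in PC3 replicate 1, whereas no score in any list was below 50. Just outside the rule, 110 sites had HIF-1α in 3 or 4 lines and exactly 1 HIF-2α peak. The weakest such HIF-2α peaks had scores of 50.21 at CYB561, 50.25 at KCTD2 and 50.42 at AURKB. The best-ranked sites with HIF-1α in 2 lines and no HIF-2α were at MGAT5B, JUN and WDR26, with mean percentiles of 45.39, 45.26 and 44.02. The sites at CYB561, KCTD2 and AURKB thus missed the selection by a single peak near the lowest score listed.

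To read HIF-1α and HIF-2α in libraries that took no part in choosing a site, the selection was repeated with each line held out. Sites were taken with a HIF-1α peak in all 3 other lines and none of their 6 HIF-2α lists, and the share with a peak was then read in the 4 libraries of the line left out. Over 698 such readings the share with a HIF-1α peak exceeded the share with a HIF-2α peak by 43.3 percentage points. A one-sided exact permutation test, in which the labels HIF-1α and HIF-2α were exchanged among the 4 libraries of a line and the sites chosen afresh, gave p = 0.000772. This is the smallest p that these exchanges can give, and the largest value of any other relabelling was 27.5 points. HIF-1α was the more frequent in 4 of 4 held-out lines. At all sites with any peak in the other lines it was also the more frequent, except in A549. Lists of equal length, the 275 best peaks of every library, gave 65.9 points (exact permutation p = 0.000772). Shortening the lists also removed HIF-2α peaks, so sites with HIF-2α in a full list could enter. Of the 76 sites that the selection rule chose from the shortened lists, 35 were also chosen from the full lists. The 65.9 points therefore rest on a different choice of sites, and the part of list length in the 43.3 points was not tested. Exchange of labels treats unequal list lengths as part of the isoform difference, so the shares over all sites stand beside each line. Every HIF-1α library used the antibody PM14 and every HIF-2α library PM9. Isoform and antibody therefore cannot be told apart in this difference.

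The line held out set how large the difference was. In HCT116, 120 of 127 such sites had a HIF-1α peak (94.5%, Wilson 95% interval 89.1 to 97.3), against 34.6% of all sites with any peak in the other 3 lines. HIF-2α was called at 32 of the same 127 sites (25.2%, 18.5 to 33.4), against 9.22% of all sites. Thus HIF-2α in HCT116 was called at such sites more often than at sites in general, even though none of the 6 other HIF-2α lists held them. Replicates 2 and 3 gave 94.5% and 89.8% for HIF-1α and 22% and 19.7% for HIF-2α, so that the antibodies did not overlap. The ratio of HIF-1α to HIF-2α sites was nonetheless 3.75 both at these sites and at all sites with any peak in the other lines. The HCT116 lists held 4505 and 4465 HIF-1α peaks against 1264 and 901 HIF-2α peaks. The part of list length in the HCT116 difference was not tested.

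In PC3, HIF-1α was called at 99 of 105 sites (94.3%, 88.1 to 97.4) against 23.5% of all sites, and HIF-2α at 11 (10.5%, 5.95 to 17.8) against 7.15%. The PC3 HIF-2α replicates gave 0 and 11 sites, and their lists held 275 and 1290 peaks. In T47D, HIF-1α was called at 90 of 157 sites (57.3%, 49.5 to 64.8) against 6.92%, and HIF-2α at 2 (1.27%, 0.35 to 4.53) against 1.56%. In A549, the shares were 108 of 309 sites for HIF-1α (35.0%, 29.8 to 40.4) against 5.39%, and 26 for HIF-2α (8.41%, 5.81 to 12) against 6.83%. The HIF-2α shares in A549, PC3 and T47D therefore lay within counting error of those over all sites, while those of HIF-1α were several-fold above them.

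Sites with HIF-1α in the 3 other lines and HIF-2α in at least 1 of them behaved otherwise in the line left out. HIF-2α was called at 74.0% of 173 such sites in HCT116, 53.8% of 197 in PC3, 50.8% of 264 in A549 and 32.7% of 281 in T47D. HIF-1α was called at 98.8%, 97.5%, 69.3% and 71.5% of them in the same order of lines. In HCT116 and PC3 the HIF-1α share was already above 94% at sites without HIF-2α, which left little room for a difference.

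**Figure D2:**
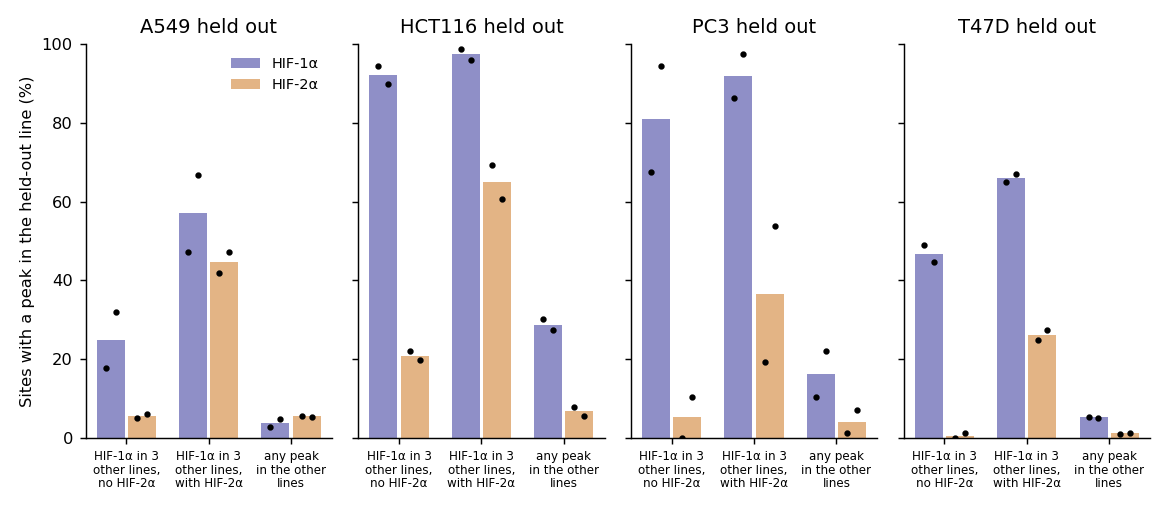
Share of sites (vertical axis, %) with a HIF-1α or HIF-2α peak in a cell line that took no part in choosing them. Bars are means of 2 replicates and points the replicates; at sites without HIF-2α in the other lines, the HIF-2α bars stay near those of sites with any peak, except in HCT116, where HIF-2α was called at 22% and 19.7%.

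Most of the 363 sites lay at promoters. The centre was within 1000 bp of a protein-coding start site at 300 sites (82.6%, Wilson 95% interval 78.4 to 86.2) and the median distance was 144 bp. Of the shared pan-line sites 63.9% were that close, with a median distance of 279 bp, a difference of 18.7 points (Newcombe 95% interval 12.4 to 24.8). With PC3 left out and HIF-1α required in the other 3 lines, the difference was 10.9 points (0.48 to 20.2). Sites are not replicates, and these intervals cover counting error only. HIF-1α sites of 2 lines without HIF-2α resembled the 363 closely, with 83.1% near a start site and the same median of 144 bp (difference -0.47 points, -5.18 to 3.74). HIF-1α sites of 1 line without HIF-2α were less often near a start site, at 55.1%.

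The peaks sat on either side of start sites, 177 of 363 (48.8%) upstream of the nearest one. By the representative transcripts, 181 centres were outside genes, 82 in introns, 60 in 5′ UTR exons, 37 in coding exons and 3 in 3′ UTR exons, and 135 of the 181 were still within 1000 bp of a start site. Start sites of different genes on both strands lay within 1000 bp of the centre at 53 sites (14.6%). The share was 5.04% at shared pan-line sites (difference 9.56 points, 5.33 to 13.9). Whether such start sites pointed away from each other was not examined. ZNF654 and CISD2 were among the 53. HIF-1α sites of 2 lines without HIF-2α were similar, at 12.1% (difference 2.5 points, -1.33 to 6.88).

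At the far end, 35 sites (9.64%) were more than 10000 bp from any protein-coding start site. The share was 21.5% at shared pan-line sites and 9.49% at HIF-1α sites of 2 lines without HIF-2α. Of the 35 sites, 31 were intergenic, 31 held RCGTG in the central 200 bp, and 15 were within 1000 bp of a start site of some other type of gene. The 3 farthest were 1206541 bp from TMEM132C, 282260 bp from MYT1L and 162976 bp from CHSY1. The site nearest to TMEM132C was 64 bp from the start of the long non-coding RNA LINC02405. It had HIF-1α peaks at percentiles 90.7 and 71.5 in HCT116, 37 in PC3 replicate 2 and 49.4 in T47D replicate 2.

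**Figure D3:**
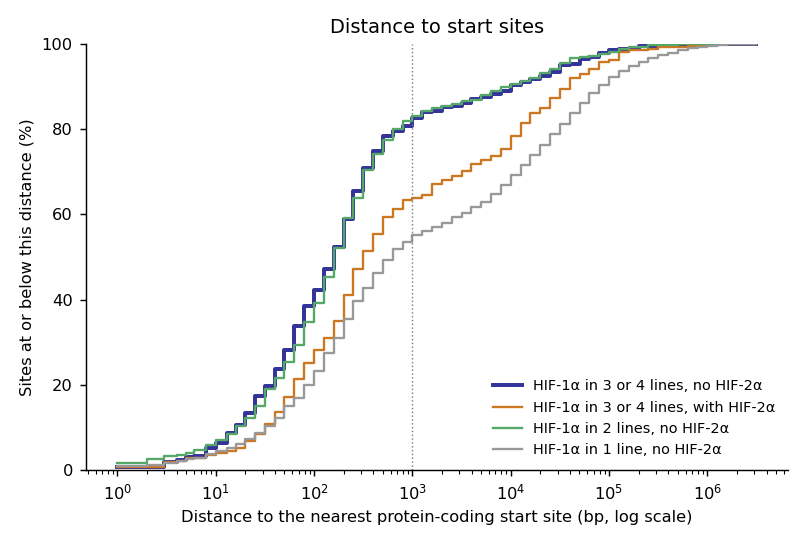
Cumulative share of sites (vertical axis, %) by distance from the site centre to the nearest protein-coding start site (horizontal axis, bp, log scale). The curve of the 363 sites runs with that of HIF-1α sites of 2 lines without HIF-2α, and at 1000 bp (dotted line) stands at 82.6%, above shared pan-line sites at 63.9% and sites of 1 line at 55.1%.

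Proximity to start sites was lower at pan-line sites held by 2 or more HIF-2α lists than at those held by no list or by 1, without a steady fall. It was 82.6% with no list and 84.5% of 110 sites with 1 list, then 65.0% of 80 with 2 and 69.0% of 42 with 3. From 4 to 6 lists it was 47.1% of 34, 42.9% of 28 and 37.1% of 35 sites. With 7 and 8 lists it was 11 of 22 and 15 of 26 sites (57.7%), with broad intervals. The 363 sites and those with a single HIF-2α list thus did not separate on this measure. The median HIF-1α percentile rose over the same series, from 34.6 without HIF-2α to 44.6 with 1 list and 96.4 with all 8, so the number of HIF-2α lists and the rank of HIF-1α moved together.

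**Figure D4:**
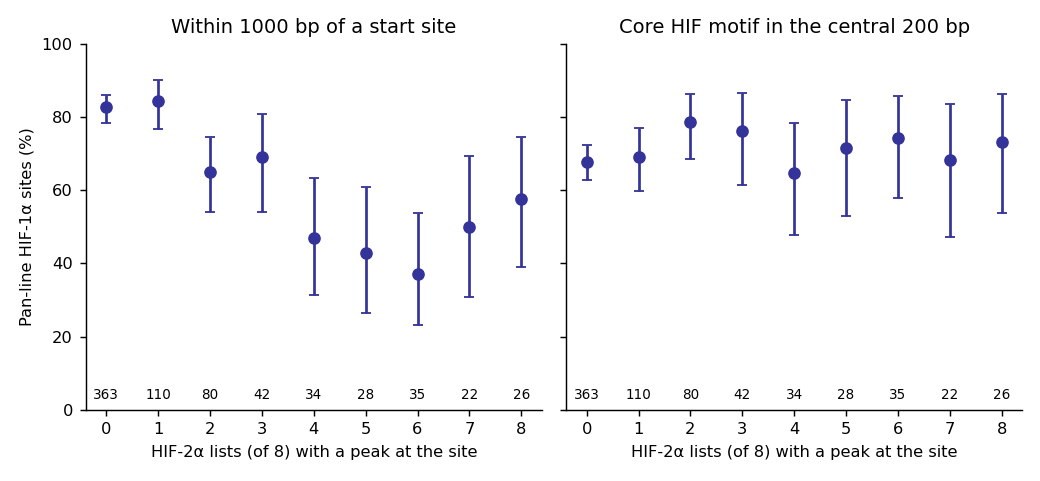
Share of pan-line HIF-1α sites (vertical axis, %) within 1000 bp of a protein-coding start site (left) or with the core HIF motif in the central 200 bp (right), by the number of HIF-2α lists that hold a peak (horizontal axis). Bars are Wilson 95% intervals and the numbers of sites stand along the axis; on the left, 0 and 1 list give 82.6% and 84.5%, whereas on the right the intervals of all classes overlap.

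To compare sites within coarse bands of HIF-1α rank, the 740 pan-line sites were divided by mean HIF-1α percentile into 4 rank groups of 185. Sites without HIF-2α made up 76.2% of the lowest group, then 57.3% and 44.3%, and 18.4% (34 sites) of the highest. Within the lowest group, 85.1% of the sites without HIF-2α and 38.6% of those with it were near a start site (difference 46.5 points, 30.2 to 60.3). In the second the shares were 83.0% and 63.3% (19.7 points, 6.92 to 32.3). In the third and the highest the differences were 10.8 points (-2.42 to 23.2) and 15.1 points (-1.73 to 26.4), and their intervals included 0. Sites without HIF-2α were near start sites to a similar degree in every rank group, from 76.8% to 85.3%.

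RCGTG was searched on both strands of the central 200 bp. It was present at 246 of the 363 sites (67.8%, 62.8 to 72.4), against 43.3% of 19799 windows of the same length around the starts of all protein-coding genes. The share was 72.4% at shared pan-line sites (difference -4.65 points, -11.2 to 1.95). It was 65.4% at HIF-1α sites of 2 lines and 50.8% at those of 1 line. Of the 363 sites, 117 had no copy, 101 had 1, 74 had 2 and 71 had 3 or more, up to 9, with CACGTG counted once on each strand. Of the 540 copies, 56.5% were within 50 bp of the centre, which is the middle 100 bp of the 200 bp searched. The share was 51.9% at shared pan-line sites, 51.9% at sites of 2 lines and 52.6% at those of 1 line. The window matters to these shares: 47.9% of sites had the motif in the central 100 bp and 92.8% in the central 500 bp.

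Between the 363 sites and the other pan-line or 2-line sites, ACGTG differed more than GCGTG. It was present at 43.0% of the 363 sites, between 32.4% at sites of 2 lines (difference 10.6 points, 4.89 to 16.4) and 50.4% at shared pan-line sites (difference -7.42 points, -14.5 to -0.23). It was present at 23.1% of sites of 1 line and 15.9% of all gene starts. GCGTG was present at 47.7% of the 363 sites, 45.4% of shared pan-line sites, 48.1% of sites of 2 lines and 33.7% of all gene starts. The extended form TACGTG, which contains ACGTG and was examined after the data had been seen, was present at 13.0% of the 363 sites, 18.6% of shared pan-line sites, 7.92% of sites of 2 lines and 1.94% of gene starts. The E-box CACGTG, which also contains ACGTG, was present at 7.99%, 8.75%, 9.57% and 5.67% in that order.

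Of the other promoter motifs, some were as frequent as at gene starts and some were rarer. CCGGAAG, read by ETS factors, was present at 10.5%, against 5.84% of shared pan-line sites (difference 4.63 points, 0.68 to 8.70) and 11.3% of gene starts. TGANTCA, read by AP-1, was present at 4.13%, against 9.02% of shared pan-line sites (difference -4.89 points, -8.58 to -1.30) and 3.05% of gene starts. At HIF-1α sites of 2 lines without HIF-2α, CCGGAAG was present at 8.01% (difference 2.46 points, -0.775 to 6.31). TGANTCA was present there at 2.26% (difference 1.87 points, -0.045 to 4.54), and both intervals included 0. GGGCGG, read by SP factors, was present at 54.8% of the sites, 53.6% of shared pan-line sites and 53.6% of gene starts. CCAAT was present at 16.5% of the sites, 16.2% of shared pan-line sites and 25.1% of gene starts, and TATAAA at 1.38%, 1.59% and 6.59%. TGACGTCA, the palindrome read by CREB and ATF factors, was present at 2.48% and GCATGCGC, read by NRF1, at 3.58%, against 1.99% and 2.92% of gene starts. The windows held a median of 20 CpG dinucleotides, against 19 at shared pan-line sites and 18 at gene starts. The quartiles were 15 and 25.5 at the 363 sites but 7 and 25 at gene starts. Gene starts were not matched for CpG content, and their motif shares include more windows poor in CpG.

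Among the highest-ranked pan-line sites, those without HIF-2α held the core motif in the central 200 bp less often than shared sites. That rank group spanned mean percentiles from 66.65 to 99.83, and rank was not matched within it. In the highest rank group, 18 of the 34 sites without HIF-2α held RCGTG in the central 200 bp (52.9%), against 113 of 151 with HIF-2α (74.8%), a difference of -21.9 points (-39.3 to -4.59). The differences in the other rank groups, from the lowest upwards, were -3.22, -4.85 and 3.27 points, and their intervals included 0. This comparison was made after the data had been seen. In the central 100 bp the difference was -16.0 points (-31.4 to 2.55), and in the central 500 bp, where 32 of 34 and 147 of 151 sites held the core, it was -3.23 points (-16.5 to 2.58). Of the 16 strong sites without it in the centre, 14 had a copy within 300 bp. At RLF, ZNF654, RAPGEF6, PPFIA3, UQCC4 and KDM2A the nearest copy was 239, 141, 135, 114, 139 and 145 bp from the centre. The lists give no peak summits, so the centres are only as exact as the peak boundaries, whose median width was 1359 bp for the best peak of a site.

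**Figure D5:**
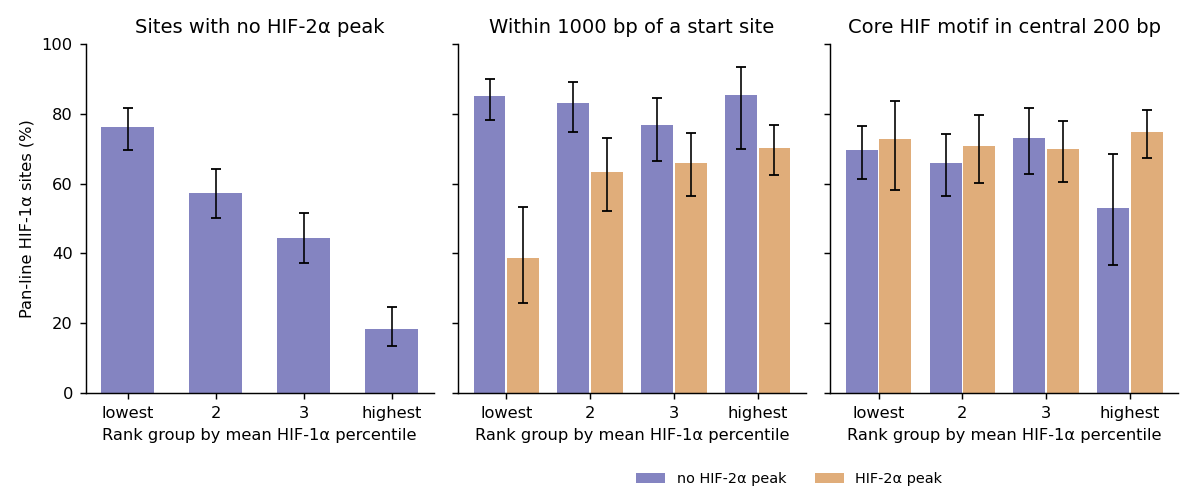
Pan-line HIF-1α sites in 4 rank groups of mean HIF-1α percentile (horizontal axis, 185 sites each), with the share without HIF-2α (left, %), near a start site (middle, %) and with the core HIF motif (right, %). Error bars are Wilson 95% intervals; the share without HIF-2α falls from 76.2% to 18.4%, and in the highest group the core motif is at 52.9% of sites without HIF-2α and 74.8% of sites with it.

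The median distance from the 363 sites to the nearest HIF-2α peak of any list was 150554 bp, and 17 (4.68%) had one within 10000 bp. Other HIF-1α sites without HIF-2α gave similar values, with medians of 134142 bp in 2 lines and 133704 bp in 1 line, and 7.40% and 7.51% within 10000 bp. The nearest genes numbered 359, of which 4 were nearest to more than 1 of the sites. Of the 359, 7 (1.95%) were also nearest to a shared pan-line site and 61 (17%) to some site with a HIF-2α peak, against 1.80% and 16.3% of all 20149 protein-coding genes. Among the 7855 genes nearest to any site the shares were 4.62% and 41.8%, although genes enter that set through HIF-2α sites too. The overlap was thus at the level of genes in general and below that of genes with any site. Absence of HIF-2α from a site was not absence from every site near its gene.

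The gene lists separated the shared sites more than the 363 sites from genes in general. None of 25 genes of glycolysis and glucose uptake was nearest to one of the 363 sites, whereas 22 of them, including SLC2A1, HK2, PGK1 and LDHA, were nearest to a shared pan-line site. Over all 20149 protein-coding genes, 1.78% were nearest to one of the 363 and 1.80% to a shared pan-line site. At such a share a list of this length could hold none by counting alone, so a count of 0 near the 363 sites is not a result about them. None of 13 genes of oxygen sensing was near one of the 363 and 3 were near a shared site, EGLN1, EGLN3 and CITED2. None of 19 genes of mitophagy and mitochondrial upkeep was near one, against 4 near a shared site. None of 21 growth control genes was near one, against 4, and of 21 autophagy genes none was near either kind of site. Of the 47 consensus HIF targets of the study with a coding symbol, 3 were nearest to one of the 363 sites and 42 to a shared site. The study chose that list partly on these libraries, so its counts are not independent evidence.

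The 3 consensus targets were SAP30, HERC3 and KDM4C. The study reports every consensus target as bound by both isoforms. It counted a gene as bound if it was among the 3 closest genes to a site that HIF-1β also held. Here only the nearest gene was taken, and whether these rules account for the difference was not tested. The nearest HIF-2α peak of any list was 507940 bp from the SAP30 site and 229301 bp from the HERC3 site. It was 40068 bp from the KDM4C site. No site nearest to SAP30 or HERC3 held a HIF-2α peak, whereas another site nearest to KDM4C did. SAP30, a subunit of the SIN3 histone deacetylase complex, had peaks at percentiles 96.7 and 93.9 in HCT116, 67.5 and 90.2 in PC3, 85.5 and 75.7 in T47D, and 49.3 and 78.8 in A549. It was called in all 8 libraries, with A549 replicate 2 lowest. HERC3, a ubiquitin ligase of the HERC family, was missing from A549 and stood at percentiles 83.5 and 90.1 in PC3, 94.6 and 93.4 in HCT116, and 52.6 and 58.3 in T47D. Its core motif was 11 bp from the centre, which was itself 11 bp from the start site.

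Of the gene lists, histone demethylases had the largest share near the sites: 4 of 22 genes (18.2%), namely KDM2A, KDM4C, KDM5B and KDM7A, against 6 of 22 near shared pan-line sites. KDM4C was near both kinds of site. Over all protein-coding genes the shares were 1.78% and 1.80%. The lists were chosen with earlier results of these data known, so the lead of this list is not independent evidence. The 4 enzymes are dioxygenases that need oxygen for catalysis. KDM2A, which binds unmethylated CpG islands, was called in all 8 libraries 15 bp from its start site. HCT116 gave percentiles of 96.3 and 95.2, PC3 94.4 and 94.6, T47D 78.1 and 68.3, and A549 52.6 and 78.1. The lower values were in the lines with the shorter HIF-1α lists, where the median percentile of all 363 sites was lower too.

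The other 3 demethylase sites were not at the start of the gene and differed between lines. The KDM4C site lay 4734 bp upstream, 28 bp from the start of a non-coding gene. It had percentiles of 99.5 and 99.2 in HCT116, 83.4 and 88.0 in A549 and 74.5 in PC3 replicate 2, and no peak in T47D. At the KDM4C start itself, a separate site had HIF-1α in all 8 libraries and a single HIF-2α peak with a score of 68.51. The KDM5B site, 2736 bp upstream and 261 bp from the start of the long non-coding RNA PCAT6, was missing from both HCT116 libraries. Its percentiles were 90.2 and 95.3 in PC3, 88.2 and 88.8 in T47D, and 7.98 and 79.4 in A549. The KDM7A site was 53706 bp upstream and had percentiles of 85.0 and 93.3 in T47D, 48.3 and 93.0 in HCT116 and 46.0 in A549 replicate 3, with no peak in PC3.

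Single genes of 3 more lists were near the sites. VEGFA, the angiogenic growth factor, was the 1 of 17 angiogenic and iron genes, against 4 near shared sites. Its site was 247 bp downstream of a start site, in an intron, and had percentiles of 86.3 and 89.2 in HCT116, 81.0 in PC3 replicate 2 and 64.9 in T47D replicate 2, with no peak in A549. HIF-2α was called elsewhere near VEGFA, in 1 library each at 11047 and 136351 bp downstream, with scores of 77.24 and 75.25. PLOD3, a collagen lysyl hydroxylase, was the 1 of 12 collagen enzymes, against 5 near shared sites, and had peaks in 5 libraries of 4 lines at percentiles from 17.0 to 83.9. MRPS26, of the small mitochondrial ribosomal subunit, was the 1 of 29 genes of the mitochondrial ribosome and respiratory chain, against 1 near a shared site, and had peaks in 5 libraries at percentiles from 19.1 to 87.2. Neither PLOD3 nor MRPS26 had RCGTG in the central 200 bp.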

How the data were processed

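Per the submitters' processing notes, reads were trimmed (Trim Galore 0.3.3), aligned to GRCh37 (BWA 0.7.5a-r405) and filtered (SAMtools 0.1.19, Picard 2.0.1, bedtools 2.17.0). The authors called peaks in each library with MACS, whose version and control library are not given in the sources used here. The study's methods also name a second caller, T-PIC, and later filters on read counts and replicates; the deposited peaks carry MACS names numbered without gaps in all 16 lists, as in lists not yet filtered. The peak score that the authors deposited has no stated scale and was used only as a percentile within its list. The depth of each library is unknown.

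Peaks were merged when they shared 1 bp. The centre of a site was the middle of its best-ranked HIF-1α peak. Start sites and representative transcripts came from GENCODE release 44 mapped to GRCh37, and sequences from GRCh37. Of 23398 peaks, 29 were on mitochondrial DNA, unplaced contigs or alternative haplotypes, for which distances and motifs were not taken. Python 3.11.15, numpy 2.4.6, scipy 1.17.1, statsmodels 0.14.6, pysam 0.24.0 and matplotlib 3.10.9 were used. Wilson and Newcombe intervals at the 95% level cover counting error only.

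The single test was the one-sided exact permutation test over held-out lines. Members and gene lists were chosen with earlier results of these data known. Named were the 12 sites of highest mean percentile over the 8 HIF-1α libraries (a missing peak counting as 0), the sites whose nearest gene was on a list, the 3 lowest-ranked and 3 farthest sites, and 3 sites just outside each edge of the rule. The base before ACGTG and the comparison within rank groups were added after the data had been seen. Alternatives comprised higher score thresholds, equal list lengths, joining of peaks within 500 bp, both replicates, other start sites and windows, and leaving out libraries and cell lines. The sequence at 1 of the 12 best-ranked sites is not reported here.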

Additional observations from a re-analysis of the deposited data

How the results depend on the processing

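The number of sites depended on the settings, their properties less. From 363 it became 228 with peaks at or above the median score, 76 with the 275 best peaks of each library, 91 with HIF-1α in both replicates, and 88 with HIF-1α in all 4 lines. Without HCT116, PC3 or T47D, and HIF-1α required in the other 3 lines, it was 127, 105 and 157. Leaving out 1 library gave 227 to 396. Of the 76 sites from equal lists, 35 were among the 363. The share near a start site was 86.4% without A549, 77.1% without T47D, 90.1% with start sites of all gene types, 71.3% with 1 start site per gene, and 81.1% to 84.0% without 1 library. RCGTG was found at 73.3% of sites without PC3, at 47.9% and 92.8% in the central 100 and 500 bp, and at 66.2% to 71.2% without 1 library. Its difference from shared pan-line sites, -4.65 points, reversed to 0.24 with equal lists and 3.37 in the central 100 bp, and grew to -12.2 with HIF-1α in all 4 lines, -11.3 without HCT116 and -7.74 without T47D HIF-1α replicate 1, where the intervals excluded 0. The held-out difference was 19.3 points in A549, 71.3 in HCT116 and 75.7 in PC3 taken alone. Without 1 library it was 34.4 to 49.6 points, with exact permutation p from 0.00154 to 0.0123. The labels give replicate numbers but no pairing; with the number as a replicate block the 43.3 points had an exact permutation p of 0.00391, the smallest that such exchanges can give. List length, and depth that is not known from the lists, limit every statement that a peak is missing.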
